A study of Mus musculus with 4 samples.

Results

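Endothelial and angiogenic genes were followed in epididymal white fat through a list of 38 genes. They were chosen by name for their role, with earlier results of these data known. The list held 15 genes of endothelial junctions and surfaces, 4 endothelial transcription factors, 5 VEGF receptors and neuropilins, 3 VEGF ligands, 2 TIE receptors, 3 angiopoietins and a related ligand, 3 Notch pathway genes and 3 lymphatic genes. Of these, 37 were read by a probe set (the group of short probes that reads 1 transcript) with a single gene symbol, out of 22180 such genes on the array. Angptl2, a secreted angiopoietin-like protein, was the exception and has no value here.

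Total RNA of 4 male mice aged 16 weeks (C57BL/6J by the labels, C57BL/6JJcl by the methods of the study), fed from 5 weeks of age with 1 of 2 chows, was read on arrays of the type GeneChip Mouse Gene 2.0 ST, with 1 mouse and 1 array in each group. The groups were AdipoKO on high fat-high sucrose chow (HFHS AdipoKO), flox/y on that chow (HFHS flox/y), AdipoKO on standard chow (STD AdipoKO) and flox/y on standard chow (STD flox/y). All 4 males carried the floxed Mir221/Mir222 allele on their X chromosome, and AdipoKO males also carried the Adipoq-cre transgene, which is active in adipocytes and is not known to act in endothelial cells. Since no group had Adipoq-cre without the floxed allele, effects of the transgene and of the deletion cannot be told apart.

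Endothelial cells line blood and lymphatic vessels, and in fat they pass lipoprotein-derived fatty acids to adipocytes. VEGF ligands act on the receptors FLT1, KDR and FLT4, angiopoietins on the receptor TEK, and DLL4 on Notch receptors of the neighbouring cell, and these pathways together set how vessels sprout and mature. Fat expands with its capillary bed, and adipocytes are themselves a source of VEGFA.

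The microRNAs removed from adipocytes by the design share a seed (bases 2 to 8, in capitals), and a microRNA of another family is shown because its gene lies within Egfl7, a member of the list whose product is secreted by endothelial cells. The mature sequences are those of RefSeq on GRCm38.p6, 5′ to 3′, at chrX:19146307-19146329 and chrX:19146901-19146923, both on the minus strand, and at chr2:26591402-26591423 on the plus strand.
mmu-miR-221-3p: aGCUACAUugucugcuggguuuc
mmu-miR-222-3p: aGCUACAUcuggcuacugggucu
mmu-miR-126a-3p: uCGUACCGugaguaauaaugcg
Neither Mir221 nor Mir222 exceeded background on any of the 4 arrays, so their probe sets check neither the genotype labels nor the deletion. Angptl2, the member without a value, was the 1 member on the study's list of predicted Mir221/Mir222 targets.

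The promoters of 3 members are shown next, because Mmrn1 had the largest differences of the list and because Flt4 and Flt1, a pair of VEGF receptors, took the same order over the 4 arrays. Each window runs from 250 bases before to 50 bases after a RefSeq transcript start on GRCm38.p6 (Mmrn1 at chr6:60944067-60944366, plus strand; Flt4 at chr11:49609429-49609728, plus strand; Flt1 at chr5:147725962-147726261, minus strand). Capitals mark AGGAAG, a core that ETS factors such as ERG and FLI1 can bind, or AACAAT, a core that SOX factors such as SOX17 and SOX18 can bind, searched on both strands.
Mmrn1: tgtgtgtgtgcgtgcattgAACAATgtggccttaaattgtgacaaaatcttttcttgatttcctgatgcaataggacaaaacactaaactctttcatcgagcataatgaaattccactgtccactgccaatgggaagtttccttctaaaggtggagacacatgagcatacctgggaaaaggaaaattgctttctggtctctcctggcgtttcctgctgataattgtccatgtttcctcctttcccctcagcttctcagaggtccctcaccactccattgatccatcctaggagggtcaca
Flt4: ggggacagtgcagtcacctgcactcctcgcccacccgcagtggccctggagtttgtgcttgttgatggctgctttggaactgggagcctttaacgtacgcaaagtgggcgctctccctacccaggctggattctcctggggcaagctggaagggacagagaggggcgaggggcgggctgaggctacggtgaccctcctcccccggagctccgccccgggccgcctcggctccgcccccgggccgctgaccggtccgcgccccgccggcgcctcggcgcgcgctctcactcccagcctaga
Flt1: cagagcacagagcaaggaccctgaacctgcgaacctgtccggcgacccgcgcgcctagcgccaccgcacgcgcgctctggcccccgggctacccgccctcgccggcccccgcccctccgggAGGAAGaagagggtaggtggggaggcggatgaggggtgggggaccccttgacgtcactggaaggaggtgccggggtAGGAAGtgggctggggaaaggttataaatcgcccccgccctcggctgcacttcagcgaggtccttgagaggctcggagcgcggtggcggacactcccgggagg
The Mmrn1 window held 1 match to AACAAT, the Flt1 window 2 matches to AGGAAG, and the Flt4 window neither. Over the list, AGGAAG stood in 11 of 29 windows of the 23 members that matched the promoter table (37.9%), against 35.4% of all 32851 windows, and AACAAT in 4 of 29 (13.8%), against 10.7% of all windows. A match describes letters only.

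The deposited values are normalized log2 values, on which a difference of 1 is a 2-fold difference, and a value was called above background when it exceeded the average of the negative control probes of its array. The lowest value above background was 5.72 on the HFHS AdipoKO array, 5.66 on HFHS flox/y, 5.79 on STD AdipoKO and 5.91 on STD flox/y, and 39.6% to 44.9% of the 41345 probe sets were above background. On this measure 36 members were above background on at least 1 array and 32 on all 4. Prox1, the transcription factor that sets lymphatic identity, was the member with a probe set that passed on no array (5.16 on HFHS AdipoKO, 4.95 on HFHS flox/y, 4.63 on STD AdipoKO and 4.79 on STD flox/y). A gene was called higher or lower when it differed at least 1.5-fold (0.585 on the log2 scale) between 2 arrays with at least 1 of them above background. With 1 mouse per group such a call has no replicate check and no p-value.

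The defining endothelial markers were present in every sample. Pecam1, an adhesion molecule of endothelial junctions, was at 10.22 on HFHS AdipoKO, 9.88 on HFHS flox/y, 10.16 on STD AdipoKO and 10.16 on STD flox/y. Cdh5, the cadherin of endothelial junctions, was at 11.27 on HFHS AdipoKO, 10.99 on HFHS flox/y, 11.01 on STD AdipoKO and 11.01 on STD flox/y. Both were thus nearly level on STD chow, and the HFHS AdipoKO array was above the other 3 for both, for Pecam1 by only 0.05 over STD AdipoKO. Of the other endothelial markers chosen beforehand, Tie1, Emcn, Esam and Erg were also highest on HFHS AdipoKO. Kdr was highest on STD AdipoKO, and Cldn5 and Tek on STD flox/y, with Tek lowest on HFHS AdipoKO. In tissue RNA, a lower value from fewer endothelial cells and one from less RNA per endothelial cell cannot be told apart.

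The question of the HFHS arrays was how fat without adipocyte Mir221/Mir222 differed from flox/y fat after the rich chow. Here 5 members were at least 1.5-fold higher in AdipoKO (Mmrn1, Nos3, Sox17, Reln and Flt4) and 0 were lower, of 36 with a value above background on 1 of the 2 arrays. Reln was below background on HFHS flox/y and its difference is bounded only as at least 1.26-fold. With both arrays above background 4 members were called. Over all 12146 genes above background on 1 of the 2 arrays, 2.14% were called higher and 3.01% lower. The difference was above 0 for 30 of the 36 members (83.3%), against 48.3% of all genes, and the median difference was 0.18 for the members and -0.01 for all genes. The members closest to the 1.5-fold limit were Flt4 (0.60) just inside it and Plvap (0.54) and Vwf (0.54) just outside it.

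**Figure D1:**
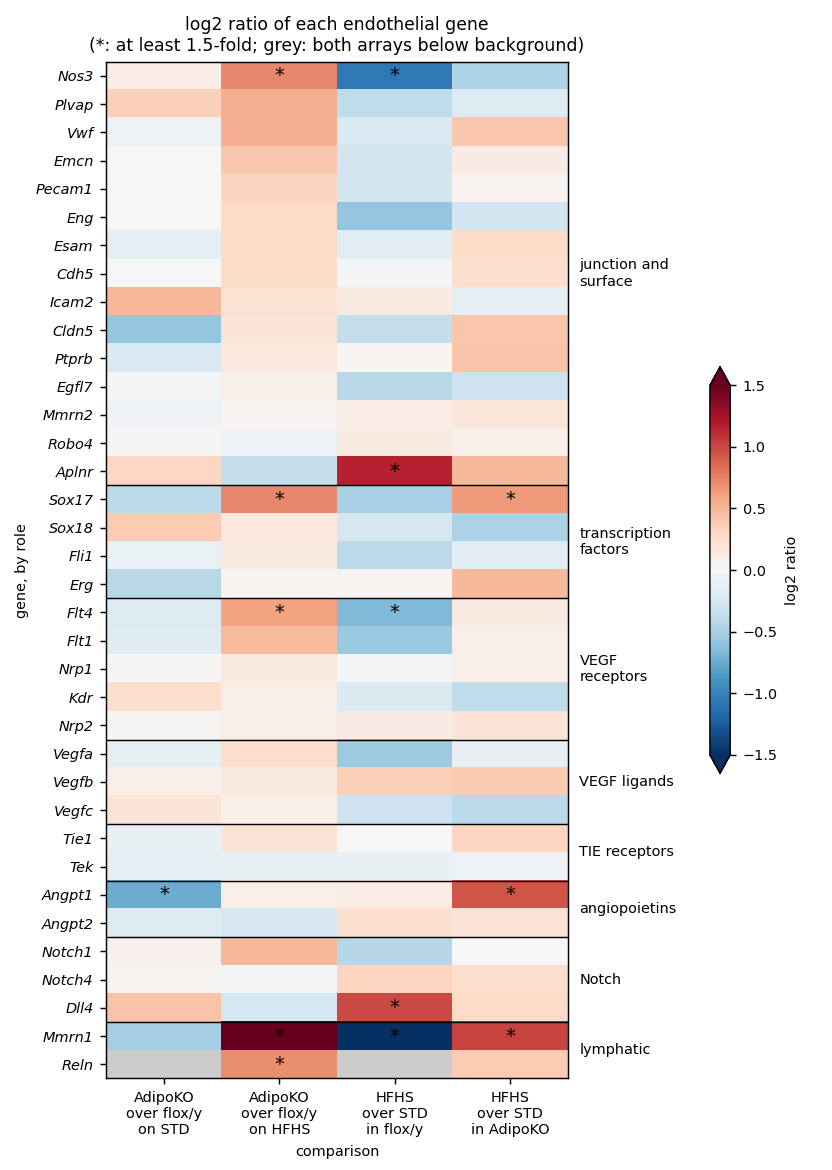
Colour gives the log2 ratio of 36 endothelial and angiogenic genes (rows, by role) in 4 comparisons of 1 array with 1 array (columns), with asterisks at ratios of at least 1.5-fold and grey where both arrays were below background. Red prevails in AdipoKO over flox/y on HFHS, where 30 of 36 ratios were above 0, and blue in HFHS over STD in flox/y, where 23 of 35 were below 0.

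On STD chow the same comparison gave another picture. There 0 members were higher and 1 was lower (Angpt1), of 35 above background, while 1.42% of 11194 genes were called higher and 2.74% lower. The difference was above 0 for 17 members and below 0 for 18, against 51.5% of all genes above 0, with a median of -8e-05 for the members and 0.01 for all genes. Cldn5, a claudin of endothelial tight junctions, lay just outside the limit at -0.58.

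**Figure D2:**
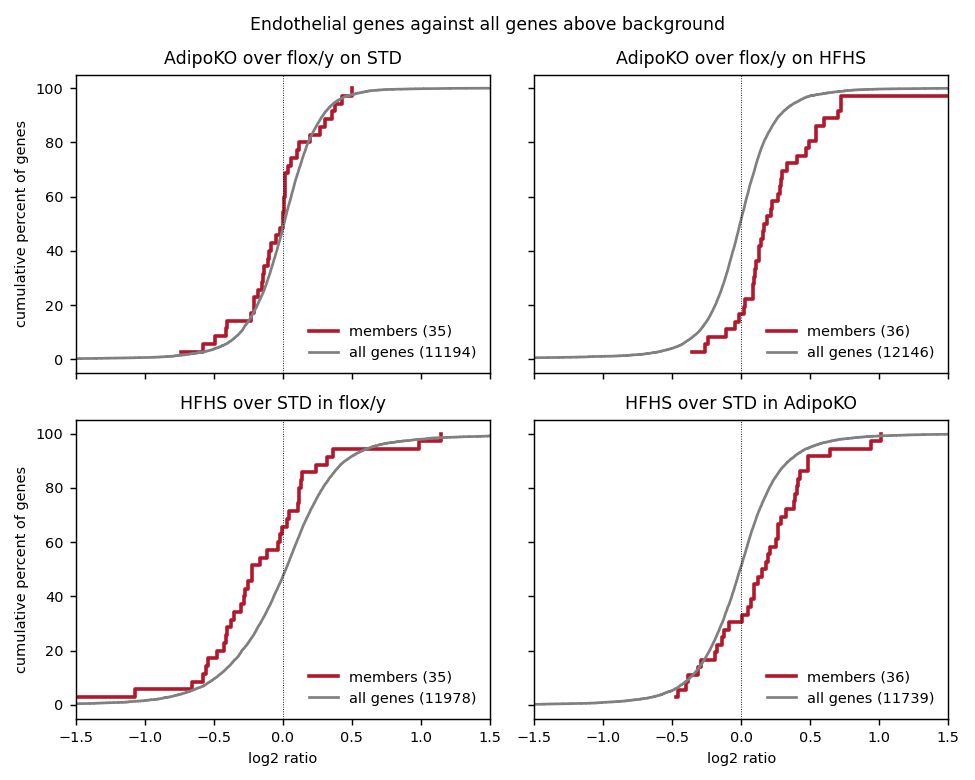
Each panel plots the cumulative percent of genes (vertical axis) against their log2 ratio (horizontal axis, shown between -1.5 and 1.5), in red for the members and in grey for all genes above background. The red line lies to the right of the grey one for AdipoKO over flox/y on HFHS (medians 0.18 and -0.01), crosses it on STD, and lies to its left over most of the range for HFHS over STD in flox/y (medians -0.22 and 0.02).

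The chow comparison in flox/y mice called 2 members higher on HFHS (Aplnr and Dll4) and 3 lower (Mmrn1, Nos3 and Flt4), of 35, against 6.01% of 11978 genes higher and 6.82% lower. The difference was below 0 for 23 of 35 members, against 47.6% of all genes, with a median of -0.22 for the members and 0.02 for all genes. Eng (-0.58), Flt1 (-0.56) and Vegfa (-0.54) lay just outside the limit. In AdipoKO mice 3 members were higher on HFHS (Mmrn1, Angpt1 and Sox17) and 0 were lower, of 36, against 3.55% of 11739 genes higher and 3.74% lower. There the difference was above 0 for 25 of 36 members, against 48.9% of all genes, and the median was 0.16 for the members and -0.01 for all genes. These comparisons share arrays: the HFHS flox/y array is the denominator of the genotype comparison on HFHS and the numerator of the chow comparison in flox/y.

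The array that stood out for these genes was HFHS flox/y. Of the 35 members measured (those whose average of the 4 arrays reached the average background), 20 had their lowest value on it, against 27.7% of the 11148 measured genes. On the HFHS AdipoKO array 16 members had their highest value, against 20.9% of measured genes, and 1 (Tek) its lowest, against 23.8%. The 5 members highest on HFHS flox/y were Robo4, Aplnr, Notch4, Dll4 and Angpt2, against 27.7% of measured genes. In a count added after seeing the data, the HFHS flox/y array was left out. Then 21 of 35 members were highest on HFHS AdipoKO among the other 3 arrays (60.0%), against 35.8% of measured genes. Over the 4 arrays the range of a member had a median of 0.49, and that of all measured genes 0.35.

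**Figure D3:**
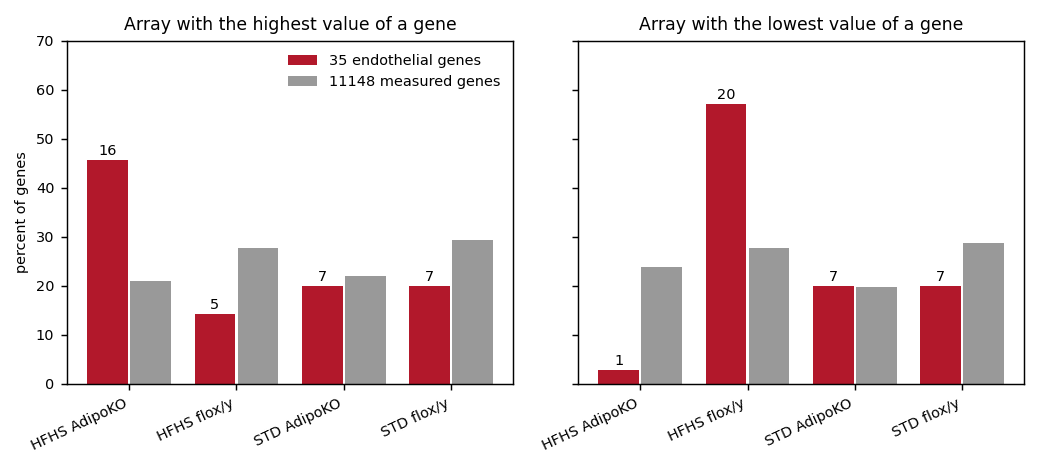
Bars give the percent of genes with their highest value (left panel) or lowest value (right panel) on each of the 4 arrays, in red for the 35 measured members with their number above the bar and in grey for the 11148 measured genes. The tallest bars are the 16 members highest on HFHS AdipoKO and the 20 members lowest on HFHS flox/y.

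The summed levels of hepatocyte markers and of macrophage markers were also highest on that array. Of 12 hepatocyte markers 11 had a probe set, and 11 were above background on HFHS flox/y and 7 on each of the other 3 arrays. Their summed expression was 926 on HFHS AdipoKO, 11418 on HFHS flox/y, 1935 on STD AdipoKO and 1259 on STD flox/y. Of 5 markers of liver sinusoidal endothelium, Stab2, Clec4g and Oit3 were below background on all 4 arrays, and the sum of the 5 was 284 on HFHS AdipoKO, 290.1 on HFHS flox/y, 317 on STD AdipoKO and 305 on STD flox/y. The 8 macrophage markers, all above background everywhere, summed to 3998 on HFHS AdipoKO, 6119 on HFHS flox/y, 3709 on STD AdipoKO and 4080 on STD flox/y, and 5 of them were lower and 0 higher in HFHS AdipoKO than in HFHS flox/y (median difference -0.70). Over all genes, 3.01% were called lower and 2.14% higher in that comparison. The part of the hepatocyte and macrophage signals in the lower endothelial values of HFHS flox/y was not tested.

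Among the receptors and co-receptors of VEGF, all 5 were above 0 in AdipoKO over flox/y on HFHS (median 0.15), and 1 of them (Flt4) was called. Of all genes, 48.3% were above 0 and 2.14% were called higher there. Flt4, the receptor for VEGFC that is best known from lymphatic vessels, was at 7.66 on HFHS AdipoKO, 7.06 on HFHS flox/y, 7.51 on STD AdipoKO and 7.72 on STD flox/y. It was 1.51-fold higher in HFHS AdipoKO than in HFHS flox/y, and 1.58-fold lower in HFHS flox/y than in STD flox/y. The other 3 arrays lay close together and HFHS flox/y below them.

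Flt1, which binds VEGFA and VEGFB and can act as a decoy for KDR, followed the same order at 9.32 on HFHS AdipoKO, 8.85 on HFHS flox/y, 9.23 on STD AdipoKO and 9.41 on STD flox/y. Its genotype difference was 0.47 on HFHS and -0.18 on STD. Kdr, the main signalling receptor for VEGFA, was at 9.78 on HFHS AdipoKO, 9.68 on HFHS flox/y, 10.17 on STD AdipoKO and 9.90 on STD flox/y. Its 2 HFHS values were thus below its 2 STD values, with chow differences of -0.38 in AdipoKO and -0.22 in flox/y. The neuropilins, which present VEGF to these receptors, varied less: Nrp1 lay at 9.79 on HFHS AdipoKO, 9.64 on HFHS flox/y, 9.70 on STD AdipoKO and 9.68 on STD flox/y. Nrp2 lay at 8.27 on HFHS AdipoKO, 8.18 on HFHS flox/y, 8.08 on STD AdipoKO and 8.06 on STD flox/y.

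None of the 3 VEGF ligands reached 1.5-fold in any comparison. Vegfa, the main growth factor for blood vessels, was at 10.96 on HFHS AdipoKO, 10.69 on HFHS flox/y, 11.08 on STD AdipoKO and 11.23 on STD flox/y, lowest on HFHS flox/y. Vegfb, which binds FLT1, was at 9.50 on HFHS AdipoKO, 9.36 on HFHS flox/y, 9.11 on STD AdipoKO and 9.01 on STD flox/y, so both HFHS values were above both STD values. Vegfc, a growth factor for lymphatic vessels, was at 6.95 on HFHS AdipoKO, 6.85 on HFHS flox/y, 7.35 on STD AdipoKO and 7.15 on STD flox/y. For Vegfc both HFHS values were below both STD values.

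The angiopoietin receptors changed little. Tek, the receptor of both angiopoietins, was at 8.45 on HFHS AdipoKO, 8.56 on HFHS flox/y, 8.54 on STD AdipoKO and 8.67 on STD flox/y, and was lower in AdipoKO than in flox/y by about the same amount on HFHS (-0.11) and on STD (-0.14). Tie1, its partner receptor, was at 7.99 on HFHS AdipoKO, 7.77 on HFHS flox/y, 7.67 on STD AdipoKO and 7.78 on STD flox/y. Neither reached 1.5-fold.

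Angpt1, the agonist of TEK that is made by perivascular cells, was at 6.15 on HFHS AdipoKO, 6.06 on HFHS flox/y, 5.21 on STD AdipoKO and 5.95 on STD flox/y. The STD AdipoKO value was below background. Counting it at the lowest level called above background on that array, Angpt1 was at least 1.11-fold lower in STD AdipoKO than in STD flox/y and at least 1.28-fold higher in HFHS AdipoKO than in STD AdipoKO. Its measured differences were -0.74 and 0.94, and with the mean of its probe sets, the single member with more than 1, they were -0.52 and 0.50 and no longer reached 1.5-fold. Angpt2, which is stored in endothelial granules and can oppose ANGPT1, lay near background on all arrays at 5.94 on HFHS AdipoKO, 6.18 on HFHS flox/y, 5.73 on STD AdipoKO and 5.94 on STD flox/y.

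Dll4, the Notch ligand of endothelial tip cells, was among the few members that were highest on HFHS flox/y. It was at 7.19 on HFHS AdipoKO, 7.46 on HFHS flox/y, 6.90 on STD AdipoKO and 6.47 on STD flox/y. It was 1.98-fold higher in HFHS flox/y than in STD flox/y, and 0.29 higher on HFHS than on STD in AdipoKO. Of its receptors, Notch1 was at 8.66 on HFHS AdipoKO, 8.16 on HFHS flox/y, 8.65 on STD AdipoKO and 8.59 on STD flox/y, so that HFHS flox/y was apart from the other 3. Notch4, the more endothelial receptor, was at 8.23 on HFHS AdipoKO, 8.25 on HFHS flox/y, 7.97 on STD AdipoKO and 7.93 on STD flox/y, with both HFHS values above both STD values. Notch1 and Egfl7 are next to each other on chromosome 2, with 0 protein-coding genes between them.

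Of the 15 genes of junctions and surfaces, 13 were above 0 in AdipoKO over flox/y on HFHS (median 0.28), against 8 on STD (median 0.00). Of all genes, 48.3% were above 0 on HFHS and 51.5% on STD, and 2.14% were called higher on HFHS. Nos3, the nitric oxide synthase of endothelium, was at 7.67 on HFHS AdipoKO, 6.95 on HFHS flox/y, 8.13 on STD AdipoKO and 8.02 on STD flox/y. It was 1.65-fold higher in HFHS AdipoKO than in HFHS flox/y, and 2.10-fold lower in HFHS flox/y than in STD flox/y. Both HFHS values lay below both STD values, and the chow difference in AdipoKO was -0.46.

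Aplnr, the receptor for apelin, went the other way. It was at 6.67 on HFHS AdipoKO, 7.02 on HFHS flox/y, 6.18 on STD AdipoKO and 5.87 on STD flox/y, where it was below background. In flox/y its HFHS value was at least 2.16-fold above its STD value, and in AdipoKO the chow difference was 0.49. Both HFHS values were above both STD values.

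The other 11 genes of this group, none of them called in any comparison, had HFHS genotype differences between -0.05 (Robo4, a Slit receptor of endothelium) and 0.54 (Plvap, the diaphragm protein of fenestrae and caveolae). Emcn (0.40), a sialomucin of capillaries and veins, Eng (0.30), a TGF-beta co-receptor, and Esam (0.29), a junction protein, were between these, as were Icam2 (0.23), Cldn5 (0.19), Ptprb (0.16), Egfl7 (0.08) and Mmrn2 (0.02). Vwf, the clotting factor carrier kept in endothelial granules, was 0.54 higher in HFHS AdipoKO than in HFHS flox/y. On STD the differences of these 11 genes lay between -0.58 (Cldn5) and 0.50 (Icam2).

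Among the transcription factors, Sox17, which is known from arterial endothelium, was at 8.47 on HFHS AdipoKO, 7.75 on HFHS flox/y, 7.82 on STD AdipoKO and 8.23 on STD flox/y. It was 1.65-fold higher in HFHS AdipoKO than in HFHS flox/y and 1.56-fold higher in HFHS AdipoKO than in STD AdipoKO, while on STD its genotype difference was -0.40. Sox18, a related factor of blood and lymphatic vessels, differed by 0.16 on HFHS and 0.38 on STD. The ETS factors Erg and Fli1 differed by 0.03 and 0.13 on HFHS and by -0.41 and -0.10 on STD.

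The largest differences of the list were those of Mmrn1. It encodes multimerin 1, a factor V binding protein of platelet granules and endothelium that serves as a marker of lymphatic vessels. Mmrn1 was at 8.33 on HFHS AdipoKO, 6.12 on HFHS flox/y, 7.32 on STD AdipoKO and 7.81 on STD flox/y. It was 4.62-fold higher in HFHS AdipoKO than in HFHS flox/y, 3.22-fold lower in HFHS flox/y than in STD flox/y and 2.02-fold higher in HFHS AdipoKO than in STD AdipoKO, and on STD its genotype difference was -0.49. Its 4 values thus spread more widely than those of any other measured member (a range of 2.21).

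Reln, a secreted glycoprotein made by lymphatic endothelium, was above background on HFHS AdipoKO alone, at 6.00, and was at 5.29 on HFHS flox/y, 5.61 on STD AdipoKO and 5.77 on STD flox/y. It was at least 1.26-fold higher in HFHS AdipoKO than in HFHS flox/y, with a measured difference of 0.70. Of a further 5 lymphatic genes above background (Lyve1, Pdpn, Foxc2, Itga9 and Gata2) 0 were called in any of the 4 comparisons, and their median genotype difference was 0.01 on HFHS and 0.00 on STD. Over all genes, the share called in 1 direction of a comparison ran from 1.42% to 6.82%. Foxc2, a transcription factor of lymphatic valves, took the same order over the arrays as Mmrn1 within a narrower range, at 6.17 on HFHS AdipoKO, 5.69 on HFHS flox/y, 6.03 on STD AdipoKO and 6.10 on STD flox/y. Lyve1, the hyaluronan receptor of lymphatic vessels that some macrophages share, was at 9.83 on HFHS AdipoKO, 9.86 on HFHS flox/y, 9.48 on STD AdipoKO and 9.83 on STD flox/y. Of 7 platelet markers 4 were above background and 0 were called in any comparison, beside the same shares of all genes. The platelet markers summed to 581 on HFHS AdipoKO, 505 on HFHS flox/y, 502 on STD AdipoKO and 534 on STD flox/y. Ppbp, a chemokine of platelet granules, took the order of Mmrn1, at 7.33 on HFHS AdipoKO, 6.77 on HFHS flox/y, 6.82 on STD AdipoKO and 7.24 on STD flox/y, with a genotype difference of 0.56 on HFHS and -0.42 on STD. The part of platelets in the values of Mmrn1 was not tested.

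**Figure D4:**
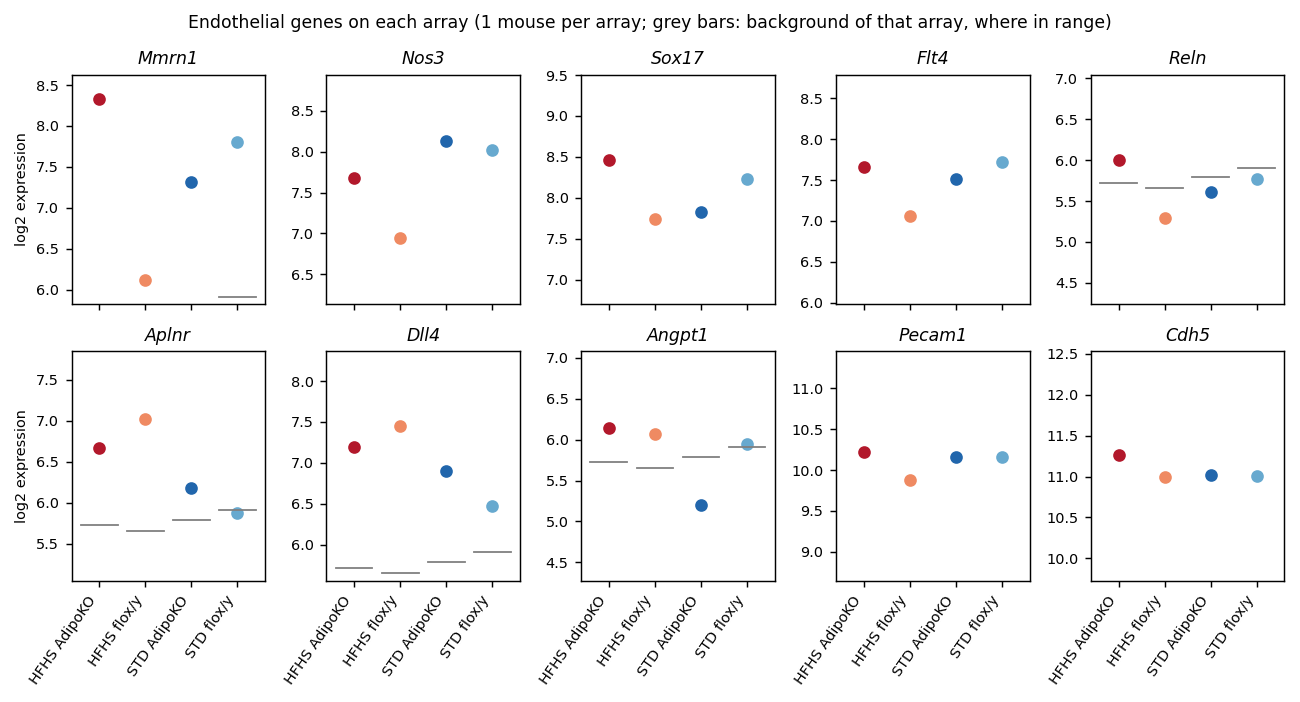
Points give the log2 expression (vertical axis, a window of the same width in each panel) of the 8 members called in at least 1 comparison and of Pecam1 and Cdh5 on the 4 arrays (horizontal axis), with the background of an array as a grey bar where it falls in the window. Mmrn1 spans 6.12 on HFHS flox/y to 8.33 on HFHS AdipoKO, while Pecam1 and Cdh5 vary by at most 0.33.

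Other endothelial genes were read from lists by vessel type. Of 23 further pan-endothelial genes 22 had a value, and 12 of the 22 (median 0.06) were above 0 in AdipoKO over flox/y on HFHS, beside 48.3% of all genes above 0. Sox7, a relative of Sox17, was the 1 gene of it called there, with 8.33 on HFHS AdipoKO, 7.00 on HFHS flox/y, 8.29 on STD AdipoKO and 7.85 on STD flox/y. In HFHS over STD in flox/y 17 of the 22 were below 0 (median -0.14), against 47.6% of all genes, and 4 were called lower and 0 higher, against 6.82% and 6.01% of all genes. In AdipoKO the same chow comparison had 13 of the 22 below 0 (median -0.13), where the members had a median of 0.16. There 48.9% of all genes were above 0. Of the 22 genes 2 were called lower and 1 higher there, against 3.74% and 3.55% of all genes. On STD 14 of the 22 were above 0 in AdipoKO over flox/y (median 0.13), against 51.5% of all genes. The 1 gene called there was Ly6c1 (-1.32), against 2.74% of all genes called lower.

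The 7 venous and activated endothelial genes were all above 0 in AdipoKO over flox/y on HFHS (median 0.44). Over all genes, 48.3% were above 0 and 2.14% were called higher there. The 2 called were Sele (E-selectin), which was above background on HFHS AdipoKO alone and was at least 1.05-fold higher, and Selp (P-selectin, kept in the granules that hold VWF). Selp was at 8.70 on HFHS AdipoKO, 7.14 on HFHS flox/y, 6.52 on STD AdipoKO and 7.01 on STD flox/y, so that HFHS AdipoKO was apart from the other 3. Of 7 arterial genes above background 6 were above 0 (median 0.17) and 0 were called. The 7 capillary genes of fat, among them Gpihbp1, which holds lipoprotein lipase on capillaries, had a median of 0.04 on HFHS with 0 called. On STD all 7 were below 0 (median -0.23), while 51.5% of all genes were above 0.

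Cells around and between vessels were read in the same way. In AdipoKO over flox/y on HFHS, 3 of 10 mural cell markers were higher and 0 lower (median 0.17), against 2.14% and 3.01% of all genes. The 3 were Cnn1 (2.17), Myh11 (1.05) and Tagln (0.59), while Acta2, the smooth muscle actin, differed by 0.09. Of the other markers, Pdgfrb (0.27) and Rgs5 (0.25) were above 0, and Notch3 (-0.05), Abcc9 (-0.09), Kcnj8 (-0.23) and Cspg4 (-0.37) below it. The 10 markers summed to 6393 on HFHS AdipoKO, 5343 on HFHS flox/y, 5304 on STD AdipoKO and 5438 on STD flox/y. Of 6 adipocyte markers 1 was higher on HFHS (Pparg, 0.66; median 0.08), of 6 fibroblast and progenitor markers 3 were lower (median -0.54), of 6 mesothelial markers 0 were called (median -0.09), and of 4 epididymal epithelium markers with a value 0 were above background. The part of these shifts in the endothelial values was not tested. No red cell marker had a probe set with a single symbol.

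**Figure D5:**
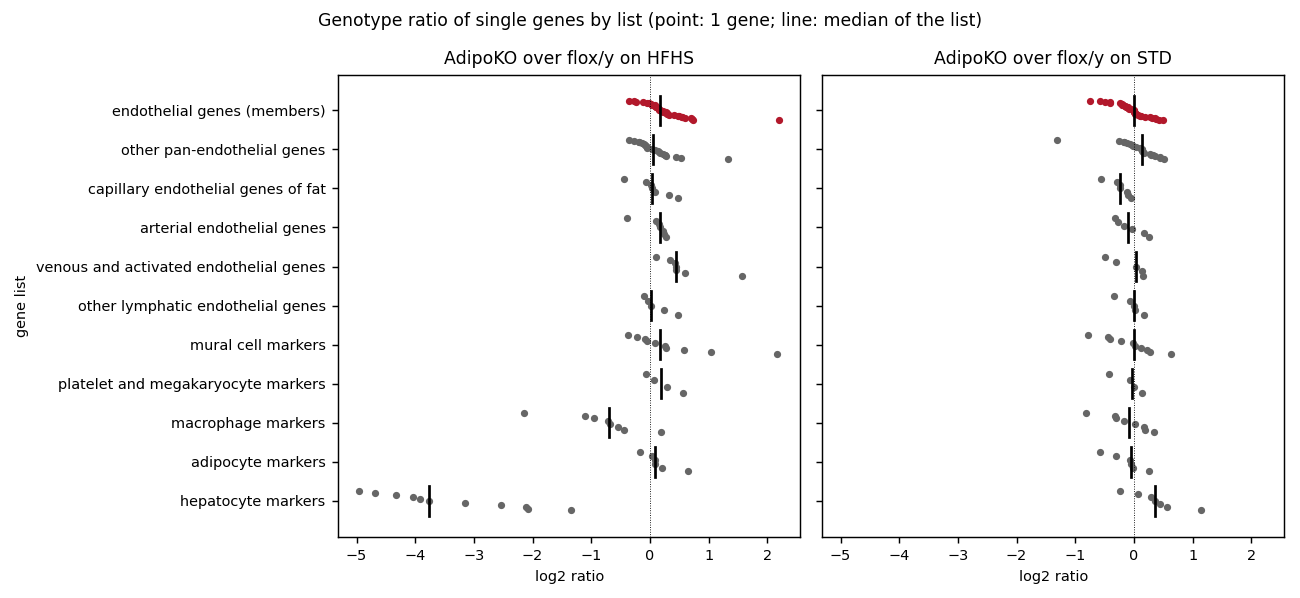
Points give the log2 ratio of AdipoKO over flox/y (horizontal axis) of single genes above background, by list (vertical axis), on HFHS in the left panel and on STD in the right panel, with the median of each list as a line. On HFHS the members have a median of 0.18, the venous and activated genes 0.44, the macrophage markers -0.70 and the hepatocyte markers -3.77.

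The single fit with a residual degree of freedom used all 4 arrays, took genotype and chow as terms and their interaction as error. By limma with Benjamini-Hochberg adjustment, 0 of 35 members and 0 of 11148 genes passed an adjusted p of 0.05 for either term. At an unadjusted p of 0.05, limma gave 1 member higher in AdipoKO and 0 lower, against 0.682% of genes higher and 0.906% lower. This was Plvap, higher by 0.45 ± 0.13 (SE) in AdipoKO over both chows (adjusted p = 1 by limma), with 8.64 on HFHS AdipoKO, 8.09 on HFHS flox/y, 8.83 on STD AdipoKO and 8.47 on STD flox/y. Mmrn1, whose genotype difference was of opposite sign on the 2 chows, had an estimate of 0.86 ± 0.71 (adjusted p = 1 by limma).

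For chow, limma at an unadjusted p of 0.05 gave 3 members higher on HFHS and 4 lower, against 5.79% of genes higher and 7.16% lower. The 3 were Aplnr (0.82 ± 0.21, adjusted p = 0.356 by limma), Dll4 (0.64 ± 0.22, adjusted p = 0.382) and Vegfb (0.37 ± 0.11, adjusted p = 0.377). The 4 were Nos3 (-0.77 ± 0.20, adjusted p = 0.36 by limma), Eng (-0.44 ± 0.13, adjusted p = 0.372), Egfl7 (-0.37 ± 0.12, adjusted p = 0.382) and Vegfc (-0.35 ± 0.12, adjusted p = 0.383).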

How the data were processed

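For each of 4 arrays the authors deposited log2 values of 41345 probe sets, normalized before deposit. The normalization method and the annotation build are not given in the sources used here, and the array medians ranged from 5.39 to 5.42. Groups were taken from the deposited titles, descriptions and genotypes, which give the same groups. The source field of the labels names another microRNA line and, for both flox/y samples, the other chow, and was not used. Arrays have no read depth, and low values are limited by background, taken as the average of the negative control probes of each array that the study gives. Gene symbols came from the platform annotation, which gave 1 symbol for 23521 probe sets, several for 1820 (left unnamed) and none for 16004. A gene was read by its probe set with the highest mean, and the 11148 genes whose average reached the average background were called measured.

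The member list and 18 other gene lists were chosen with earlier results of these data known. Log2 values were subtracted between pairs of arrays, and a difference of at least 1.5-fold with 1 of the 2 arrays above background was called, without a p-value. A value below background was set to the background level of its array for folds written as at least. Members were named with all values when called in a comparison, when part of a ligand and receptor family, or as defining markers (Pecam1, Cdh5), and up to 3 genes of each other list by size of difference. Plvap, Foxc2, Ppbp, Lyve1 and the single mural cell markers were named after their values were seen. Gpihbp1 was named outside the rule by size of difference, and without its values.

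The fit used limma 3.58.1 in R 4.3.3 on the measured genes, with genotype and chow as terms, 1 residual degree of freedom, empirical Bayes with trend and Benjamini-Hochberg adjustment. On data simulated for the genotype term over 11148 genes, limma recovered 1% of 100 genes changed by 1 and 79% of 100 genes changed by 2 on the log2 scale, with 9 false calls. Tables and figures used Python 3.11.15, pandas 2.3.3, numpy 2.4.6 and matplotlib 3.10.9. The alternatives were quantile normalization, centring of each array, the mean of all probe sets, other background filters, a 2-fold limit and other settings of limma.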

Additional observations from a re-analysis of the deposited data

Results flagged for a closer look

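For 5 members the measured genotype difference had opposite signs on the 2 chows and reached 1.5-fold on 1 of them. The share of all genes that met this rule was not counted, so the number cannot be read as high or low. The difference between the 2 chows (AdipoKO over flox/y on HFHS minus that on STD, log2) was not tested, with 1 mouse per group. It was 2.70 for Mmrn1, from 2.21 on HFHS and -0.49 on STD. It was 1.12 for Sox17, from 0.72 on HFHS and -0.40 on STD. For Reln it was 0.86 as measured, but Reln was above background on HFHS AdipoKO alone, so that its HFHS difference of 0.70 is bounded only as at least 1.26-fold and its STD difference of -0.16, between values below background, has no sign. It was 0.81 for Flt4, from 0.60 on HFHS and -0.21 on STD. It was 0.83 for Angpt1, from 0.08 on HFHS and -0.74 on STD, where the STD AdipoKO value was below background.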

How the results depend on the processing

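No paired analysis was possible because each group had 1 mouse. No called difference of a member changed sign under quantile normalization, centring or the mean of all probe sets. Centring moves all genes of an array by the same amount, and the mean of all probe sets can alter Angpt1 alone among the members. Background filters leave the differences as they are and change only which genes are counted. The 1 member lower in AdipoKO on STD (Angpt1) became 0 with centred arrays, with the mean of all probe sets, with 1 of the 2 arrays above 2 times background, with both arrays above background and at 2-fold. With centred arrays the Angpt1 difference was still -0.71, but Angpt1 no longer counted as above background. At 2-fold the 5 members higher in AdipoKO on HFHS became 1, while 0.362% of all genes were called higher at that limit. Also at 2-fold the 3 higher on HFHS in AdipoKO became 1, and the 2 higher on HFHS in flox/y became 1, as they did with both arrays above background. For limma, 0 members at an adjusted p became 1 for genotype and 7 for chow at an unadjusted p (3 higher and 4 lower on HFHS, but 2 lower under quantile normalization and under centring, and 4 higher and 6 lower without the covariate). Among single values, Flt4 in HFHS over STD in flox/y was -0.58 under quantile normalization and no longer reached 1.5-fold, and Vegfa was -0.60 and did. Centring moved the members below 0 in that comparison to 20 of 35 and the share of all genes above 0 from 52.3% to 59.4%. Added after seeing the data, the members lowest on HFHS flox/y numbered 17 to 20 under other scalings and probe set rules, against 25.2% to 27.6% of measured genes. Those highest on HFHS AdipoKO numbered 15 to 17, against 21.1% to 26.6% of measured genes. Signal over background limits Reln, Angpt1, Angpt2, Prox1 and Aplnr.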

Other observations

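Genes around the angiogenic pathways showed differences of their own. Of 13 further angiogenic ligands and inhibitors above background, 1 was higher (Thbs2, 1.33) and 1 lower (Apln, -0.82) in AdipoKO over flox/y on HFHS (median 0.14). On STD 1 was higher (Cxcl12, 0.63) and 1 lower (Thbs1, -1.32). Over all genes, 2.14% were called higher and 3.01% lower on HFHS, and 1.42% higher and 2.74% lower on STD. Thbs1 and Thbs2 encode thrombospondins, secreted inhibitors of angiogenesis. Thbs2 was at 10.58 on HFHS AdipoKO, 9.25 on HFHS flox/y, 9.39 on STD AdipoKO and 9.77 on STD flox/y, so that HFHS AdipoKO was apart from the other 3. Thbs1 was at 11.59 on HFHS AdipoKO, 11.20 on HFHS flox/y, 10.60 on STD AdipoKO and 11.93 on STD flox/y. Apln, the ligand of APLNR, was at 6.29 on HFHS AdipoKO, 7.11 on HFHS flox/y, 6.20 on STD AdipoKO and 5.84 on STD flox/y, the same order as Aplnr.

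Of 6 tip cell genes above background on HFHS, 1 was higher in AdipoKO (Plaur, 0.66) and 2 were lower (Apln and Cxcr4, -0.70). Over all genes, 2.14% were called higher and 3.01% lower on HFHS. Of 7 hypoxia response genes above background, 5 were above 0 on HFHS (median 0.39), with 1 called higher (Slc2a1, 0.79). The lowest on HFHS was P4ha1 (-0.57). All 7 were below 0 on STD (median -0.22), with 2 called lower. Of all genes, 48.3% were above 0 on HFHS, and on STD 51.5% were above 0 and 2.74% were called lower. Slc2a1, a glucose transporter, was at 8.20 on HFHS AdipoKO, 7.41 on HFHS flox/y, 7.99 on STD AdipoKO and 8.53 on STD flox/y. In flox/y, 3 of the 7 hypoxia response genes were lower on HFHS than on STD and 0 were higher (median -0.51). Over all genes, 6.82% were called lower and 6.01% higher in that comparison.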
